A study of Mus musculus with 6 samples.

Results

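The genes described here are the Wnt ligands, their receptors, the secreted antagonists and the intracellular and feedback components of Wnt/β-catenin signaling in cultured mouse neural retinal progenitor cells (mNRPCs). Members were picked by gene symbol from the deposited expression table: every Wnt, Frizzled (Fzd), Sfrp and Dkk gene with a standard symbol, and the names Frzb, Wif1, Lrp5, Lrp6, Ctnnb1, Apc, Axin1, Axin2, Lef1, Tcf7, Tcf7l1, Tcf7l2, Apcdd1, Nkd1, Notum, Znrf3, Rnf43 and Ccn4. This gave 55 of 55401 genes: 19 Wnt ligands, 12 receptors, 10 secreted antagonists, 3 genes of the β-catenin destruction complex and its substrate, 4 TCF/LEF factors and 7 feedback or target genes. RNA was sequenced from 3 Ifitm3 knockdown libraries, made about 48 h after lipid transfection of an siRNA against Ifitm3, and from 3 Control libraries. The labels do not say whether the Control cells received a scrambled siRNA or none. The cells are an adult mouse line of the study's own laboratory, grown on Matrigel with N2/B27, bFGF and CHIR99021, an inhibitor of the kinase GSK3 that stabilizes β-catenin. That activator of the pathway was in the culture medium the methods describe for these cells, with no exception named for either group.

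Wnt proteins are secreted lipid-modified ligands that bind a Frizzled receptor and, for the β-catenin branch, the coreceptors Lrp5 or Lrp6. Without a ligand, a complex built on Axin and Apc marks β-catenin for degradation. With a ligand, β-catenin accumulates and works with TCF/LEF factors to switch on targets, several of which (Axin2, Nkd1, Notum, Znrf3, Rnf43, Apcdd1) damp the signal in turn. In the retina the pathway is known for its part in the ciliary margin and in the growth of progenitors.

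Ifitm3, the membrane protein gene that the siRNA targets, had 349.7, 546.38 and 398.47 FPKM (fragments scaled to transcript length and library size) in the Ifitm3 knockdown libraries, against 3121.34, 2120.21 and 2509.18 FPKM in the Control libraries. The groups did not overlap, and the knockdown mean was 16.7% of the Control mean (log2 fold change -2.59, SE 0.23; adjusted p = 0.1 by limma over 13588 genes; exact two-sided permutation p = 0.1, the smallest that 3 against 3 libraries allow). Of 12 retinal progenitor markers, 5 had a mean of at least 1 FPKM: Sox2, Hes1, Nes, Pax6 and Six3. The summed level of the 12 spanned 83.8 to 125 FPKM in Ifitm3 knockdown and 73.8 to 113 FPKM in Control libraries. Rax and Six6, which define early retinal progenitors, were listed at 0 in every library. Of 10 mesenchymal markers, 6 had a mean of at least 1 FPKM, Col3a1 and Twist1 among them, with a summed level of 125 to 227 FPKM in Ifitm3 knockdown and 180 to 244 FPKM in Control libraries, while Col1a1 stayed at or below 0.32 FPKM. Of the 7 mesenchymal markers tested, 5 had an estimate below 0 and 2 above, with a median log2 fold change of -0.34 (beside 0.04 over all genes tested). At an unadjusted p under 0.05, 1 of them passed (beside 3.37% lower and 5.32% higher of all genes tested). That one, Prrx1, was higher in Ifitm3 knockdown, with 14.22, 17.05 and 17.80 FPKM against 9.65, 11.89 and 12.43 FPKM in Control libraries (log2 fold change 0.53). Acta2, Pdgfrb and Col3a1 had log2 fold changes of -0.88, -0.40 and -0.34 with overlapping groups, and Tagln had 0.70, 0.59 and 0.60 FPKM in Ifitm3 knockdown against 0.82, 0.71 and 1.15 FPKM in Control libraries, without overlap. A single neuronal marker, Tubb3 (4.11 ± 2.27 FPKM in Ifitm3 knockdown and 6.66 ± 2.56 FPKM in Control), and a single glial marker, Glul (16.9 ± 0.7 FPKM in Ifitm3 knockdown and 15.9 ± 0.9 FPKM in Control), had a mean of at least 1 FPKM (SD, n = 3 each), and no endothelial, microglial or pigment epithelial marker did. The part of these cells in the results below was not tested. Nothing in the labels says that libraries of a group came from separate cultures, so the p-values reflect only library-to-library spread, and that spread may be technical. Fragment counts were not used here and the depth behind each value is unknown.

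Most of the family was at or near 0 FPKM in these libraries, and each role was carried by a few genes. Of the 55 members, 26 averaged 0.5 FPKM or more across all libraries and entered the test, and 11 were listed at 0 in every library: Wnt1, Wnt2, Wnt3a, Wnt8a, Wnt8b, Wnt9b, Wnt16, Sfrp2, Sfrp5, Wif1 and Dkk4. The other 18 members had a value somewhere, none of them above 0.86 FPKM in any library. A listed 0 can also be a failed estimate, so it is given as listed. FPKM is scaled by transcript length, so levels can be set side by side between genes.

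Wnt7b, a ligand known in the eye for its role in the regression of fetal vessels, was the leading Wnt gene, with 44.24, 66.21 and 53.05 FPKM in Ifitm3 knockdown libraries and 31.09, 86.93 and 48.54 FPKM in Control libraries. It made up 79.0 to 81.9% of the summed ligand FPKM in Ifitm3 knockdown and 69.0 to 81.3% in Control libraries. The groups overlapped, with the lowest and the highest library both in the Control group, and the difference was small beside its error (log2 fold change 0.08, 95% interval -0.80 to 0.96). Wnt9a followed at 2.91, 8.63 and 3.93 FPKM in Ifitm3 knockdown, against 6.88, 14.69 and 3.47 FPKM in Control libraries (log2 fold change -0.60, 95% interval -2.0 to 0.80). Wnt5a, the prototype of ligands that act without β-catenin, had 7.46, 5.60 and 6.61 FPKM in Ifitm3 knockdown and 5.82, 5.00 and 6.32 FPKM in Control libraries (log2 fold change 0.19, 95% interval -0.19 to 0.57). The 3 genes together held at least 97.16% of the ligand FPKM in every library. In the order of levels Wnt7b stood clear of the others, whereas the ranges of Wnt9a and Wnt5a overlapped.

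Wnt5b was the fourth and last tested ligand, at 0.75 ± 0.25 FPKM in Ifitm3 knockdown and 0.84 ± 0.16 FPKM in Control libraries (SD, n = 3 each). It lies across the gene Fbxl14 on the opposite strand, and the sources used here do not say whether strand was used in quantification, so its low value is uncertain. The other 15 ligands did not pass 0.28 FPKM in any library. Wnt10b, a ligand of the β-catenin branch, was listed at 0, 0 and 0.04 FPKM in Ifitm3 knockdown and at 0.03, 0.04 and 0.04 FPKM in Control libraries. The values are given to 2 decimals, so these are a few of the smallest steps the table can show, and no fold change is given.

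Among the receptors, Fzd6 and Fzd7 led and held 60.8 to 64.1% of the summed Frizzled FPKM in Ifitm3 knockdown and 54.4 to 62.4% in Control libraries. Fzd6 had 11.21, 17.25 and 16.03 FPKM in Ifitm3 knockdown and 19.50, 18.18 and 12.06 FPKM in Control libraries. Fzd7 had 12.27, 13.41 and 11.74 FPKM in Ifitm3 knockdown and 10.38, 12.30 and 8.76 FPKM in Control libraries. Both overlapped between the groups, and the ranges of these neighbours in the order of levels overlapped too. The coreceptor Lrp6 averaged 4.54 ± 0.87 FPKM in Ifitm3 knockdown and 3.77 ± 0.60 FPKM in Control libraries, whereas its relative Lrp5 averaged 0.15 FPKM in both groups (SD, n = 3 each). Fzd1, Fzd8, Fzd5, Fzd3 and Fzd4 had means of 0.94 to 4.09 FPKM over the 6 libraries, and Fzd9 and Fzd10 stayed at or below 0.11 FPKM.

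Secreted antagonists were represented by Dkk3 and Dkk2, which held at least 98.1% of the antagonist FPKM in every library. Dkk2 is a relative of the Lrp5/6 blocker Dkk1, and Dkk3 is a divergent family member. Sfrp4, a decoy that binds Wnt proteins, was next, at 0.36, 0.22 and 0.32 FPKM in Ifitm3 knockdown and 0.86, 0.11 and 0.64 FPKM in Control libraries, too low to be tested. Dkk1, Sfrp1 and Frzb did not pass 0.34 FPKM in any library.

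Ctnnb1, which encodes β-catenin, had the highest level of all members, with 87.83, 92.30 and 86.10 FPKM in Ifitm3 knockdown and 96.22, 99.90 and 91.19 FPKM in Control libraries. The highest knockdown library was above the lowest Control library, and the difference was within a narrow interval (log2 fold change -0.11, 95% interval -0.37 to 0.15). The scaffold Axin1 had 21.56, 14.54 and 17.94 FPKM in Ifitm3 knockdown and 18.48, 14.29 and 18.34 FPKM in Control libraries. Apc, the other scaffold, had 4.45, 3.35 and 1.79 FPKM in Ifitm3 knockdown and 3.81, 3.89 and 0.36 FPKM in Control libraries. Control replicate 3 stood far below the other 5, and the fold change of Apc turned on it, at 0.68 on the log2 scale with all libraries (95% interval -1.37 to 2.73) and -0.35 without that library.

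Tcf7, which encodes TCF1, supplied most of the TCF/LEF expression, 74.8 to 80.6% of the FPKM in Ifitm3 knockdown and 69.2 to 83.5% in Control libraries. It had 8.89, 10.60 and 10.21 FPKM in Ifitm3 knockdown and 7.02, 12.54 and 6.48 FPKM in Control libraries. Tcf7l1, often a repressor of targets, had 2.25, 2.14 and 1.82 FPKM in Ifitm3 knockdown and 2.44, 1.47 and 2.02 FPKM in Control libraries. Tcf7l2 had 0.73, 0.61 and 0.63 FPKM in Ifitm3 knockdown and 0.67, 1.01 and 0.60 FPKM in Control libraries. All 3 overlapped between the groups. Lef1, itself a known target of the pathway, was near 0, at 0.01, 0.01 and 0.01 FPKM in Ifitm3 knockdown and 0.01, 0 and 0 FPKM in Control libraries.

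**Figure D1:**
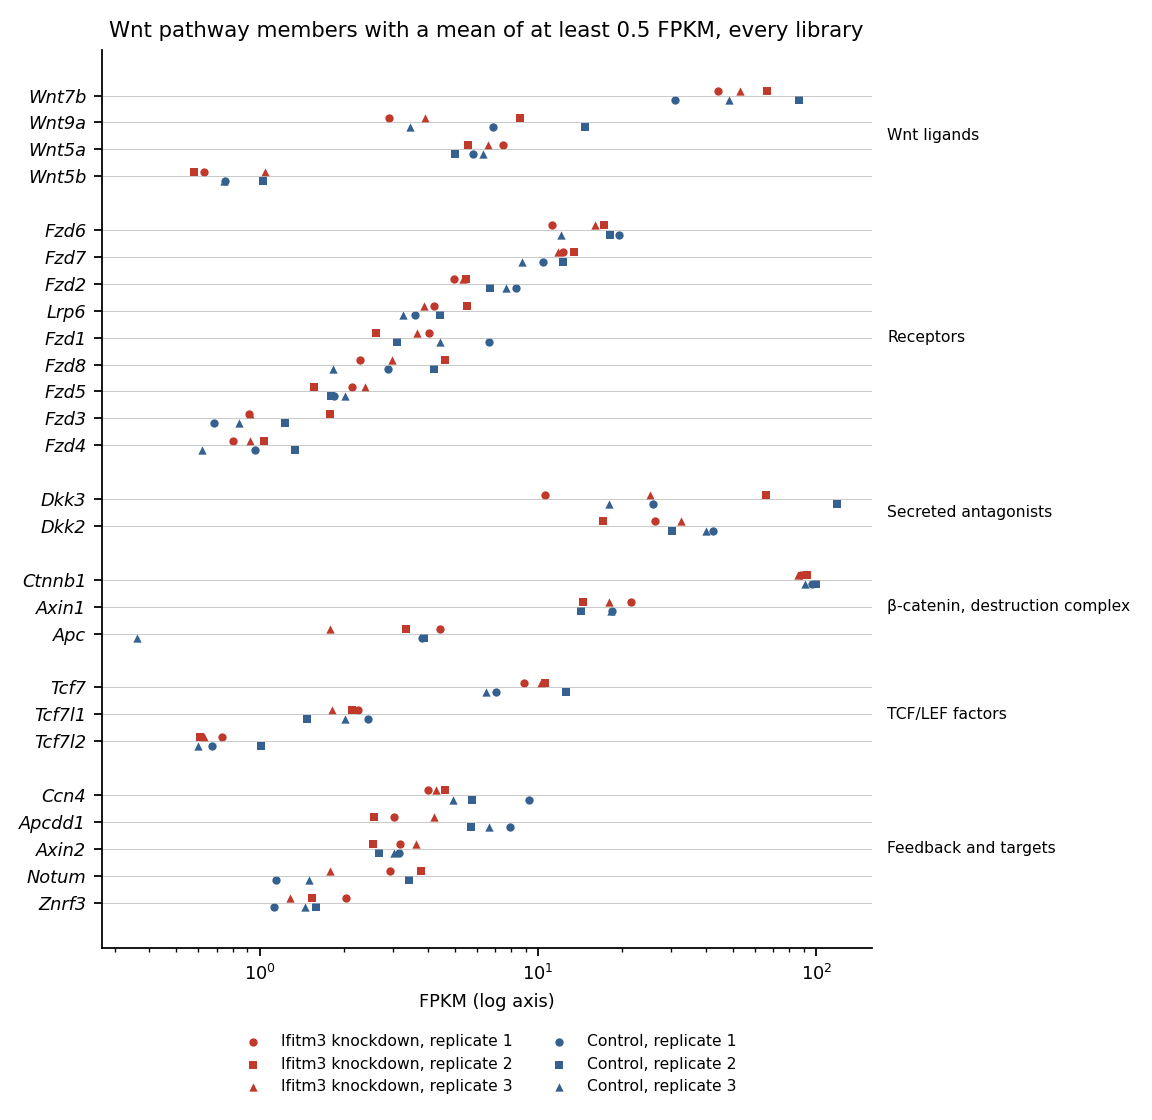
FPKM (log axis) of the 26 Wnt pathway members with a mean of at least 0.5 FPKM, by role and in order of level within each role, with 1 point per library (Ifitm3 knockdown in red above, Control in blue below, marker shape for the replicate number). Wnt7b, Dkk3, Dkk2, Ctnnb1, Axin1 and Fzd6 reach 10 FPKM or more in every library, the points of Apcdd1, Fzd2 and Ccn4 do not overlap between the groups, and the lowest point is Apc in Control replicate 3.

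Against this background of levels, few members differed between the groups. At an unadjusted p under 0.05 (limma), 2 of 26 members were lower in Ifitm3 knockdown (7.69%, beside 3.37% of all genes tested) and 0 were higher (beside 5.32% of all genes). With the study's thresholds, an absolute log2 fold change over 1 and an unadjusted p under 0.05, 1 member was lower (3.85%, beside 0.5% of all genes) and 0 were higher (beside 0.927%). After Benjamini-Hochberg adjustment over all 13588 genes no member passed 0.05, the smallest adjusted p of a member was 0.380, and 0.00736% of all genes passed. Libraries of the groups did not overlap for 3 members that were lower in Ifitm3 knockdown (11.5%, beside 5.69% of all genes) and for 0 that were higher (beside 9.96%). The members were chosen with earlier results of these data known, Apcdd1 and Ccn4 by their own symbols. These shares therefore cannot show an excess of falls among Wnt genes. The estimate was above 0 for 14 members and below 0 for 12, with a median log2 fold change of 0.07 beside 0.04 over all genes tested. In bulk libraries, fewer cells of one type and less RNA per cell cannot be told apart.

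**Figure D2:**
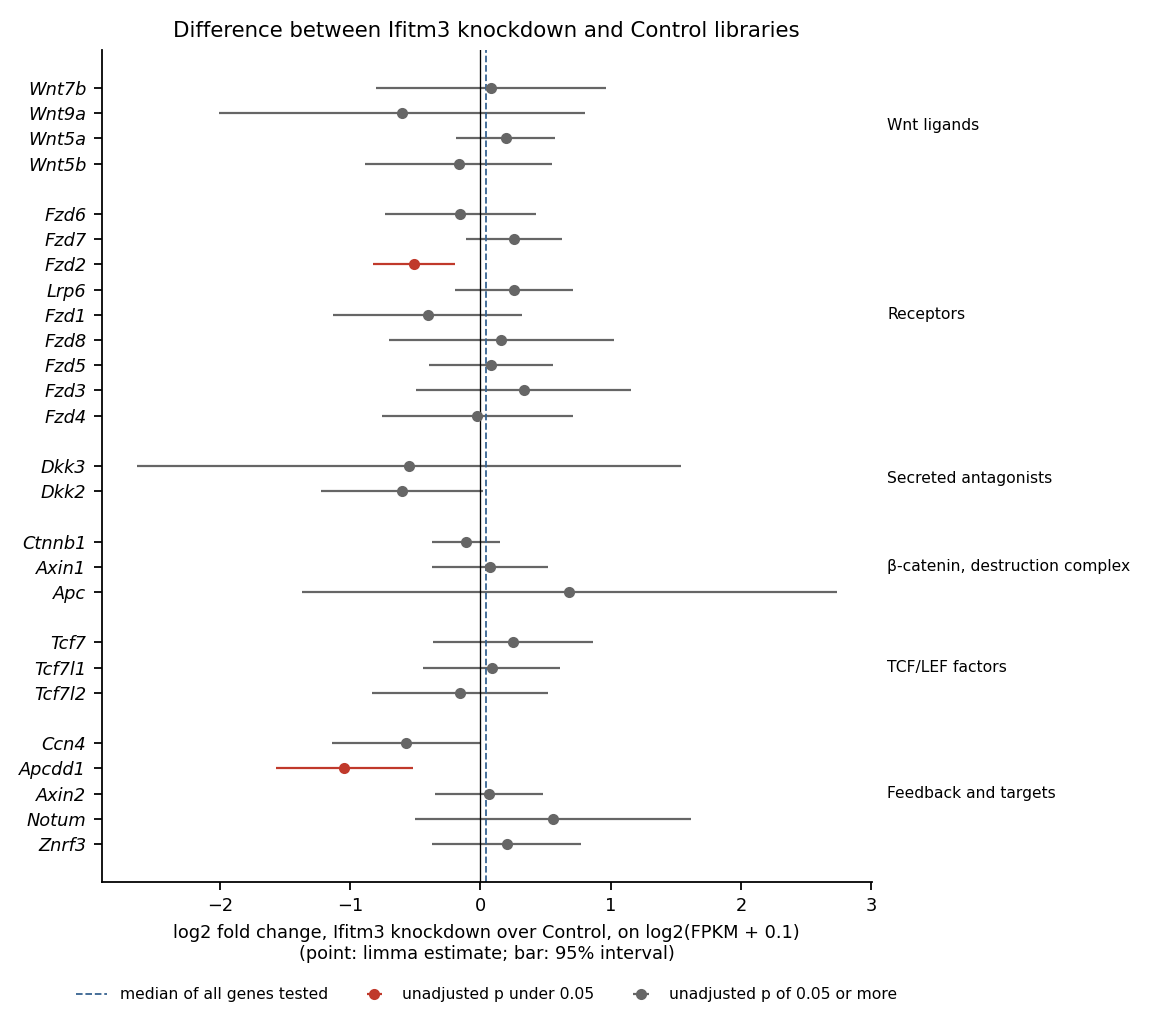
Log2 fold change of Ifitm3 knockdown over Control on log2(FPKM + 0.1) for the 26 tested members by role, with 95% intervals from limma (points in red have an unadjusted p under 0.05, the dashed line is the median of all genes tested). Only the intervals of Apcdd1 and Fzd2 lie below 0, and those of Dkk3, Apc and Wnt9a are the widest.

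Apcdd1 had the largest fall that passed the test. It encodes a cell-surface inhibitor that binds Wnt and Lrp5 and is itself a target of the pathway, and it lies on chromosome 18 at 62922231 to 62961179 on the plus strand (GRCm38). Its level was 3.02, 2.57 and 4.22 FPKM in Ifitm3 knockdown libraries, against 7.93, 5.71 and 6.67 FPKM in Control libraries. All knockdown libraries were below all Control libraries, and the mean was 48.3% of the Control mean (log2 fold change -1.04, SE 0.22; limma adjusted p = 0.380). It was lower at an unadjusted p under 0.05 in each of the 15 alternative analyses, with log2 fold changes between -1.24 and -0.87. Its place past the study's thresholds rested on single libraries, since the estimate was -0.93 without Control replicate 1 and -0.89 without Ifitm3 knockdown replicate 2.

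Fzd2, a Frizzled receptor that serves both the β-catenin and the Wnt5a branch, was the other member below 0.05. It lies on chromosome 11 at 102604396 to 102608058 on the plus strand. It had 4.97, 5.49 and 5.36 FPKM in Ifitm3 knockdown libraries, against 8.33, 6.71 and 7.68 FPKM in Control libraries. The groups did not overlap, with the knockdown mean at 69.6% of the Control mean (log2 fold change -0.51, SE 0.13; limma adjusted p = 0.460). The log2 fold change stayed between -0.62 and -0.44 over the 15 alternatives, each with an unadjusted p under 0.05. Fzd2 made up 11.5 to 12.9% of the summed Frizzled FPKM in Ifitm3 knockdown libraries and 13.7 to 20.1% in Control libraries. The other 8 tested receptors did not pass the test, with estimates of -0.40 for Fzd1 to 0.33 for Fzd3. Of these, Fzd1 (log2 fold change -0.67) and Fzd7 (log2 fold change 0.38) came under an unadjusted 0.05 in limma when Control replicate 2 was left out. Other libraries moved them the other way, to -0.13 for Fzd1 without Control replicate 1, -0.22 for Fzd1 without Ifitm3 knockdown replicate 2 and 0.14 for Fzd7 without Control replicate 3.

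Ccn4 (Wisp1), a secreted matricellular protein and target of Wnt1 and β-catenin, just missed the threshold. It lies on chromosome 15 at 66891320 to 66923201 on the plus strand. It had 4.02, 4.61 and 4.29 FPKM in Ifitm3 knockdown libraries, against 9.29, 5.77 and 4.95 FPKM in Control libraries. The groups did not overlap, but the Control libraries spread far more widely, with SDs of 0.30 FPKM in Ifitm3 knockdown and 2.31 FPKM in Control (log2 fold change -0.57, SE 0.24; limma adjusted p = 0.573). The unadjusted p was under 0.05 in 5 of the 15 alternatives. The log2 fold change was -0.75 and passed without Control replicate 3, and was -0.31 and did not pass without Control replicate 1.

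Dkk2 had 26.33, 17.03 and 32.65 FPKM in Ifitm3 knockdown libraries, against 42.40, 30.37 and 40.18 FPKM in Control libraries. The highest knockdown library was above the lowest Control library (log2 fold change -0.60, SE 0.26; limma adjusted p = 0.585, with the unadjusted value just above the threshold). It was under an unadjusted 0.05 in 5 of the 15 alternatives, among them the fits without Control replicate 2 (log2 fold change -0.75), without Ifitm3 knockdown replicate 3 (log2 fold change -0.81) and without both replicate 2 libraries (log2 fold change -0.49). Without Ifitm3 knockdown replicate 2 its log2 fold change was -0.34 and did not pass. Dkk3 had 10.55, 65.89 and 25.18 FPKM in Ifitm3 knockdown libraries, against 25.81, 118.41 and 17.98 FPKM in Control libraries, a spread that left its interval at -2.64 to 1.54 on the log2 scale.

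**Figure D3:**
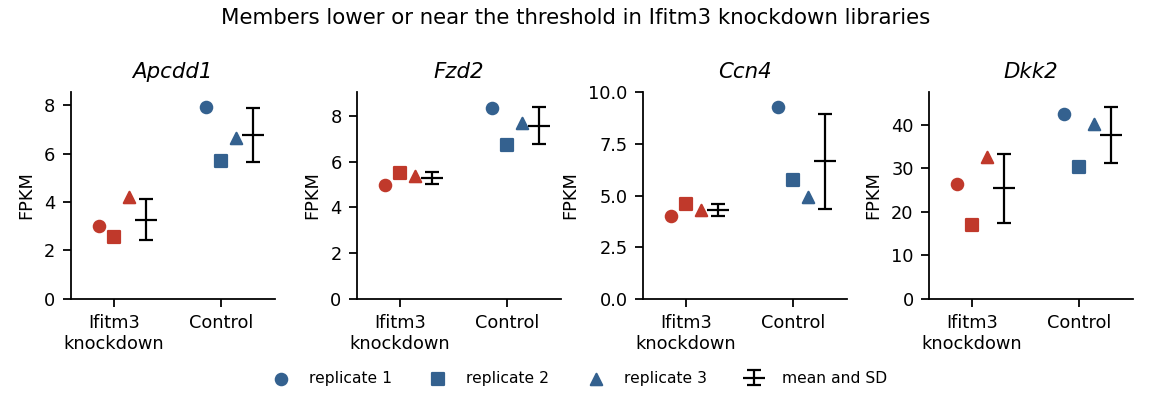
FPKM per library (points, marker shape for the replicate number) of Apcdd1, Fzd2, Ccn4 and Dkk2 in Ifitm3 knockdown and Control libraries, with the mean and SD of each group beside them. All Ifitm3 knockdown points of Apcdd1, Fzd2 and Ccn4 lie below all Control points, while Dkk2 overlaps (32.65 FPKM in Ifitm3 knockdown replicate 3 and 30.37 FPKM in Control replicate 2).

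The other feedback genes did not pass the test. Axin2, the most widely used readout of β-catenin activity, had 3.19, 2.54 and 3.64 FPKM in Ifitm3 knockdown libraries, against 3.17, 2.68 and 3.02 FPKM in Control libraries. The groups overlapped and the log2 fold change was 0.07 with a 95% interval of -0.35 to 0.48. That interval reflects only library-to-library spread, and it leaves out a change as large as that of Apcdd1. The medium described for these cells held CHIR99021, and whether Axin2 follows ligand or receptor levels in that medium was not tested. Notum, a secreted enzyme that removes the lipid from Wnt proteins, had 2.94, 3.79 and 1.79 FPKM in Ifitm3 knockdown, against 1.14, 3.44 and 1.5 FPKM in Control libraries (log2 fold change 0.56, 95% interval -0.50 to 1.62). Its log2 fold change was 1.0 and passed an unadjusted 0.05 without Control replicate 2, but was 0.24 without Control replicate 1 and 0.32 without Ifitm3 knockdown replicate 2. Znrf3, a ubiquitin ligase that clears Frizzled from the membrane, averaged 1.62 ± 0.39 FPKM in Ifitm3 knockdown and 1.39 ± 0.24 FPKM in Control libraries (SD, n = 3 each). Nkd1, which binds Dishevelled, was listed at 0.02, 0.03 and 0 FPKM in Ifitm3 knockdown and at 0, 0.02 and 0.01 FPKM in Control libraries. Rnf43, a relative of Znrf3, did not pass 0.01 FPKM. Of the 7 feedback and target genes, 5 were tested: 1 fell (Apcdd1, beside 3.37% of all genes tested) and 0 rose (beside 5.32%). Their median log2 fold change was 0.07, beside 0.04 over all genes tested.

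Several members were set apart by replicate number, in both groups. Both replicate 2 libraries were above the other 4 for 10 of the 26 tested members (38.5%, beside 13.2% of all genes tested): Wnt7b, Wnt9a, Dkk3, Fzd3, Fzd4, Fzd7, Fzd8, Lrp6, Notum and Tcf7. Both were below the other 4 for 5 members (19.2%, beside 17.7% of all genes), namely Axin1, Axin2, Fzd1, Fzd5 and Wnt5a. This was noticed after the values were seen and was not tested. The margin was thin for some members. Fzd7 had 12.30 FPKM in Control replicate 2 and 12.27 FPKM in Ifitm3 knockdown replicate 1. Fzd5 had 1.80 FPKM in Control replicate 2 and 1.85 FPKM in Control replicate 1. The 5 progenitor markers with a mean of at least 1 FPKM were divided. Hes1 was highest in both replicate 2 libraries, with 6.94, 30.12 and 9.85 FPKM in Ifitm3 knockdown and 5.60, 29.59 and 7.02 FPKM in Control libraries. Sox2 was too, at 58.55 FPKM in Ifitm3 knockdown replicate 2 and 44.57 FPKM in Control replicate 2. Nes and Pax6 did not follow this order. Six3 was lowest of its group in both, at 7.71 FPKM in Ifitm3 knockdown replicate 2 and 10.93 FPKM in Control replicate 2. Without both replicate 2 libraries the log2 fold change of Tcf7 was 0.49, beside 0.25 with all 6 libraries, and without Control replicate 2 alone it was 0.54, and in limma it passed an unadjusted 0.05 in both reduced fits and not with all libraries. Leaving out Control replicate 1 gave 0.13 for Tcf7, and leaving out Control replicate 3 gave 0.07. Under both of these alternatives Apcdd1 and Fzd2 stayed below an unadjusted p of 0.05.

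**Figure D4:**
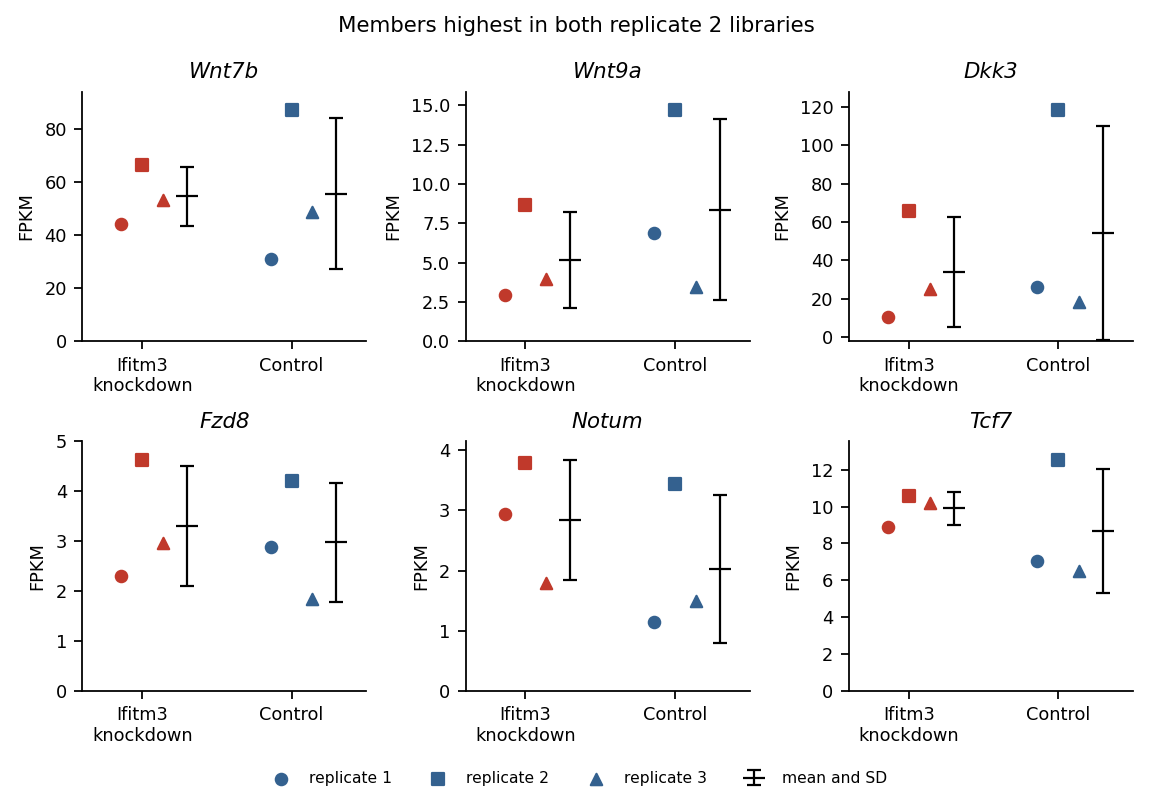
FPKM per library of 6 of the 10 members that were highest in both replicate 2 libraries, with the mean and SD of each group beside the points (marker shape for the replicate number). In each panel the square, replicate 2, is the highest point of its group, as for Dkk3 at 65.89 FPKM in Ifitm3 knockdown and 118.41 FPKM in Control libraries.

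The RefSeq promoters of the members were searched for the core TCF/LEF motif, CTTTG with an A or a T at each of the next 2 positions, counted on either strand in the 250 bases before the start of transcription. Promoters were listed for 35 of the 55 members. Members without one were not searched, among them Apcdd1, Fzd2, Ccn4, Wnt7b, Dkk3, Fzd6 and Axin1. A match was found in 6 of the 45 promoters listed for 35 members (13.3%, beside 14.8% of 32817 mouse promoters): those of Dkk1, Fzd7, Wnt11 and Wnt5b, and 1 promoter each of Lef1 and Tcf7l2. Of these genes Fzd7 alone had a level above 2 FPKM here. The upstream bases of Fzd7 (chr1:59481897-59482146, plus strand) are shown as the one well-expressed member with a match among those searched, in capitals, 130 bases before the start. Those of Dkk2 (chr3:132085042-132085291, plus strand) and Axin2 (chr11:108920099-108920348, plus strand) are shown because their values are set out above, and they hold none of these letters in this window. All 3 are RefSeq sequences of GRCm38.p6, written 5′ to 3′.
Fzd7: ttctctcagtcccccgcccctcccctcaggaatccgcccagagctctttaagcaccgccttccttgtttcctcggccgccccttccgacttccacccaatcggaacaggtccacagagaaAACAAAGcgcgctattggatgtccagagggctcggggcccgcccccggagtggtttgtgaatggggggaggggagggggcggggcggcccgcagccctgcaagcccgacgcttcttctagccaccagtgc
Dkk2: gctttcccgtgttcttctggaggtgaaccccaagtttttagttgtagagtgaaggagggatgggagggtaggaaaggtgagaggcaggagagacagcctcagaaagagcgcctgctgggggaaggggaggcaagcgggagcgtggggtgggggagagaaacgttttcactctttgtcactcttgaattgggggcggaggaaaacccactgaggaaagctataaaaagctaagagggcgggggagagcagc
Axin2: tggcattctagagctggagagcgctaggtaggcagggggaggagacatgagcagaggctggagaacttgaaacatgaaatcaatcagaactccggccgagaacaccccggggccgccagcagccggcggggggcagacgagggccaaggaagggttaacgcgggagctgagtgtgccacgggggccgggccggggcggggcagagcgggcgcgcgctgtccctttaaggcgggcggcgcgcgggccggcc

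Further genes of the pathway were read from 4 lists, in which 1 gene passed the test. Of 32 cytoplasmic and nuclear transducers, 28 were tested: 1 rose (beside 5.32% of all genes), 0 fell (beside 3.37%) and the median log2 fold change was 0.04. The one that rose was Tle1, a corepressor that binds TCF/LEF factors, at 4.78, 5.63 and 4.01 FPKM in Ifitm3 knockdown and 3.11, 4.03 and 3.51 FPKM in Control libraries. The groups overlapped by a small step, as the lowest knockdown library (4.01 FPKM) stood just under the highest Control library (4.03 FPKM), and the difference did not survive adjustment (log2 fold change 0.42, SE 0.18; limma adjusted p = 0.573). Pygo2, a coactivator of β-catenin, had 29.20, 1.77 and 25.24 FPKM in Ifitm3 knockdown and 29.14, 28.43 and 4.20 FPKM in Control libraries, so that 1 library of each group stood far below the rest. Gsk3a, 1 of the 2 GSK3 genes, averaged 59.2 ± 12.9 FPKM in Ifitm3 knockdown and 59.0 ± 8.8 FPKM in Control libraries, and Gsk3b averaged 2.09 ± 0.21 and 1.92 ± 0.33 FPKM in these groups (SD, n = 3 each).

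Of 20 further target genes, 10 were tested and 0 passed in either direction by limma at an unadjusted p under 0.05. Of all genes tested, 3.37% were lower and 5.32% higher at this threshold. The median log2 fold change of the 10 was 0.20, beside 0.04 over all genes tested. Ccnd1, the cyclin that drives entry into S phase, had 370.77, 311.69 and 289.15 FPKM in Ifitm3 knockdown and 182.20, 446.38 and 354.14 FPKM in Control libraries, which enclosed the knockdown values. Myc had 25.69, 18.93 and 18.91 FPKM in Ifitm3 knockdown and 10.39, 17.46 and 25.23 FPKM in Control libraries, again overlapping. Sp5, Tbx3, Cdx1 and Gbx2, targets of the pathway in other tissues, were listed at 0 in every library.

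Of 18 genes of ligand processing and the R-spondin module, 8 were tested and 0 passed in either direction (beside 3.37% lower and 5.32% higher of all genes). Wls, the carrier that takes Wnt proteins to the membrane, averaged 20.6 ± 6.4 FPKM in Ifitm3 knockdown and 20.5 ± 2.3 FPKM in Control libraries, and Porcn, the enzyme that attaches their lipid, averaged 2.87 ± 0.84 FPKM in Ifitm3 knockdown and 3.74 ± 0.43 FPKM in Control libraries (SD, n = 3 each). The R-spondin genes Rspo1, Rspo2, Rspo3 and Rspo4 did not pass 0.24 FPKM in any library. Of their receptors, Lgr4 averaged 6.15 ± 0.90 FPKM in Ifitm3 knockdown and 5.91 ± 0.52 FPKM in Control libraries. Lgr6 had 2.21, 5.16 and 1.23 FPKM in Ifitm3 knockdown and 0.26, 5.87 and 0.75 FPKM in Control libraries. Its groups overlapped and its interval was wide (log2 fold change 1.05, 95% interval -1.43 to 3.53). Of 15 noncanonical and polarity genes, 10 were tested and 0 passed in either direction (beside the same shares of all genes). Ryk, a Wnt receptor outside the Frizzled family, led this list with 28.63, 29.37 and 32.44 FPKM in Ifitm3 knockdown and 40.70, 33.34 and 31.83 FPKM in Control libraries. The overlap of Ryk was narrow and its log2 fold change was -0.22 (95% interval -0.55 to 0.11).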

How the data were processed

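The authors extracted total RNA with TRIzol, selected poly(A) RNA, made libraries with a dUTP strand-marking step and sequenced paired ends on a NovaSeq. Tools listed in the submitters' notes are StringTie 1.3.4d, HISAT2 2.0.4 and cutadapt 1.9, with a human build, although the gene identifiers are mouse: 99.5% of them are in GENCODE vM21 (GRCm38), from which positions were taken. The deposited values are FPKM per gene and library, rounded to 2 decimals by the authors. Library totals lay between 344706 and 360247 FPKM.

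log2(FPKM + 0.1) was fitted with limma 3.58.1 (R 4.3.3, mean-variance trend, two-sided) for the 13588 genes averaging 0.5 FPKM or more, with group as the one factor and Benjamini-Hochberg adjustment over all of them. Fold changes are on this scale, which understates those of low genes. The fit was tested on simulated data. Members and lists were chosen with earlier results of these data known. All libraries are given for members at an unadjusted p under 0.05 or past the study's thresholds, the 3 highest in each role, and Wnt10b, Dkk2, Ccn4, Axin2, Lef1, Nkd1 and Notum; of the other lists the rule names genes at an unadjusted p under 0.05, and those named beyond it were chosen after their values were seen. The 15 alternatives changed the pseudocount, the filter, the scaling, the trend, the block or the libraries used. Sums and motif searches used Python 3.11.15 and pandas 2.3.3.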

Additional observations from a re-analysis of the deposited data

How the results depend on the processing

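Apcdd1 and Fzd2 were lower in Ifitm3 knockdown at an unadjusted p under 0.05 in all 15 alternatives, and the smallest adjusted p of any member in them was 0.318. The count of members lower at an unadjusted p under 0.05, 2 in the analysis reported, was 4 with median-ratio scaling, 4 with the replicate block and 2 to 4 when 1 library was left out. The count higher was 0 in the analysis reported, 1 without both replicate 2 libraries and 0 to 3 when 1 library was left out, the 3 being Fzd7, Notum and Tcf7 without Control replicate 2. The count lower past the study's thresholds was 1 in the analysis reported, 0 with a pseudocount of 1 and 0 to 1 when 1 library was left out. The share of all genes called in each alternative is not given here, so a change in these counts may not be particular to the members. The cause was not tested.

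The replicate numbers were not taken to pair the libraries, because the paper names no block. As a check, deviations of same-numbered libraries correlated at 0.07, 0.43 and 0.03 for numbers 1, 2 and 3, and number 2 alone correlated best with its own. With the number as a block, Dkk2 (log2 fold change -0.60, adjusted p = 0.339) and Fzd1 (log2 fold change -0.40, adjusted p = 0.412) joined Apcdd1 and Fzd2. The knockdown of Ifitm3 lay between -2.91 and -2.44 on the log2 scale over the 15 alternatives. Of the 26 tested members, 14 kept their sign throughout and 12 changed it in at least 1 alternative, each time without passing the threshold. The median log2 fold change of the tested members, 0.07, was -0.01 with quantile normalization, -0.03 with no filter (44 members) and -0.14 without Control replicate 3. Scaling moved the median of all genes by less than 0.1 on the log2 scale. With fragment counts not used here, no limit from depth can be given.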
